A study of Mus musculus with 6 samples.

Results

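The genes described are 9 that mark the path from the oligodendrocyte precursor to the premyelinating cell, *Pdgfra*, *Cspg4*, *C1ql1*, *Lhfpl3*, *Pcdh15*, *Neu4*, *Gpr17*, *Bmp4* and *Enpp6*, in this order from precursor to newly formed cell. They were taken by symbol through the Ensembl identifiers of GENCODE release M21, and 8 of the 9 were matched to a row of the 18254 genes in the table. *Lhfpl3*, which encodes a tetraspan membrane protein, was not analysed here. RNA sequencing had been performed on the medial prefrontal cortex (mPFC) of male wild-type (WT) and *Shank3* transgenic (TG) mice, 3 RNA samples for each genotype. The *Shank3* TG mice carry an EGFP-*Shank3* transgene, the WT mice were their littermates, and all were in a C57BL/6J background and 10 to 12 weeks old. Each RNA sample combined tissue of 2 mice of one genotype, so the spread given is between pools and not between single animals. The promoter that drives the transgene is not given in the sources used here. The comparison asks whether genes of these early stages differ between the genotypes in the mPFC. The values are normalized read counts of the whole tissue, which sum to between 28363967 and 29447717 in a library.

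Oligodendrocyte precursors, also called NG2 glia, persist in the adult cortex, where they divide and give rise to new oligodendrocytes. PDGF-A acting on the PDGF alpha receptor keeps them dividing, and BMP signals, in part through the Id proteins that block basic helix-loop-helix factors such as Olig2, hold back their maturation. A precursor that commits to maturation loses the PDGF receptor, passes through a short stage with Gpr17, and then expresses *Enpp6* before it makes compact myelin.

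*Shank3* itself separated the labels, with 17470, 19004 and 16310 normalized counts in TG-1, TG-2 and TG-3 and 8374, 8173 and 6791 in WT-1, WT-2 and WT-3. Excitatory neuron markers were present in every library, with between 39218 and 45669 normalized counts of *Slc17a7*, the vesicular glutamate transporter of cortical neurons. In TG-2, *Eomes* and *Sp8*, genes of the olfactory bulb and its neuroblasts that were singled out after their values had been seen, had 148.6 and 124.6 normalized counts, against at most 30.6 and 68.7 in the other 5 libraries. *Dlx1*, with 1364 normalized counts, was also highest in TG-2, and the other 3 of the 6 genes of that list, *Dcx*, *Dlx2* and *Tbr1*, were highest in a WT library. The list summed to 7819 normalized counts in TG-2 and to between 6809 and 7420 in the others. The libraries numbered 3 also stood apart in both genotypes. Their correlation across genes of the deviations from the genotype means was 0.62, against 0.30 and 0.33 for the pairs numbered 1 and 2.

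None of the 8 genes passed the threshold between the genotypes. In limma's two-sided moderated test on log2(normalized count + 1), 0 of the 8 had an adjusted p-value under 0.05 (Benjamini-Hochberg), as had 0% of the 16714 genes tested. *Shank3*, the gene of the transgene, was itself not called in this fit, so the lack of a call does not show that a gene was unchanged. Before adjustment the count under 0.05 was also 0 of 8, against 2.01% of all genes tested. In the fit with the block for replicate numbers it was 1 of 8, *Enpp6*, before adjustment, against 4.98%, and 0 of 8 after it, against 0.00598%. The fitted log2 fold change was above 0 for 4 of the 8 genes and below 0 for 4, with a median of 0.0031 against -0.0037 over all genes tested, of which 48.6% were above 0. The median was 0.0031 over the 4 precursor genes and 0.12 over the 4 premyelinating genes, whose single values ran from -0.42 to 0.32. In whole tissue, fewer cells of a type and less RNA per cell cannot be told apart.

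**Figure D1:**
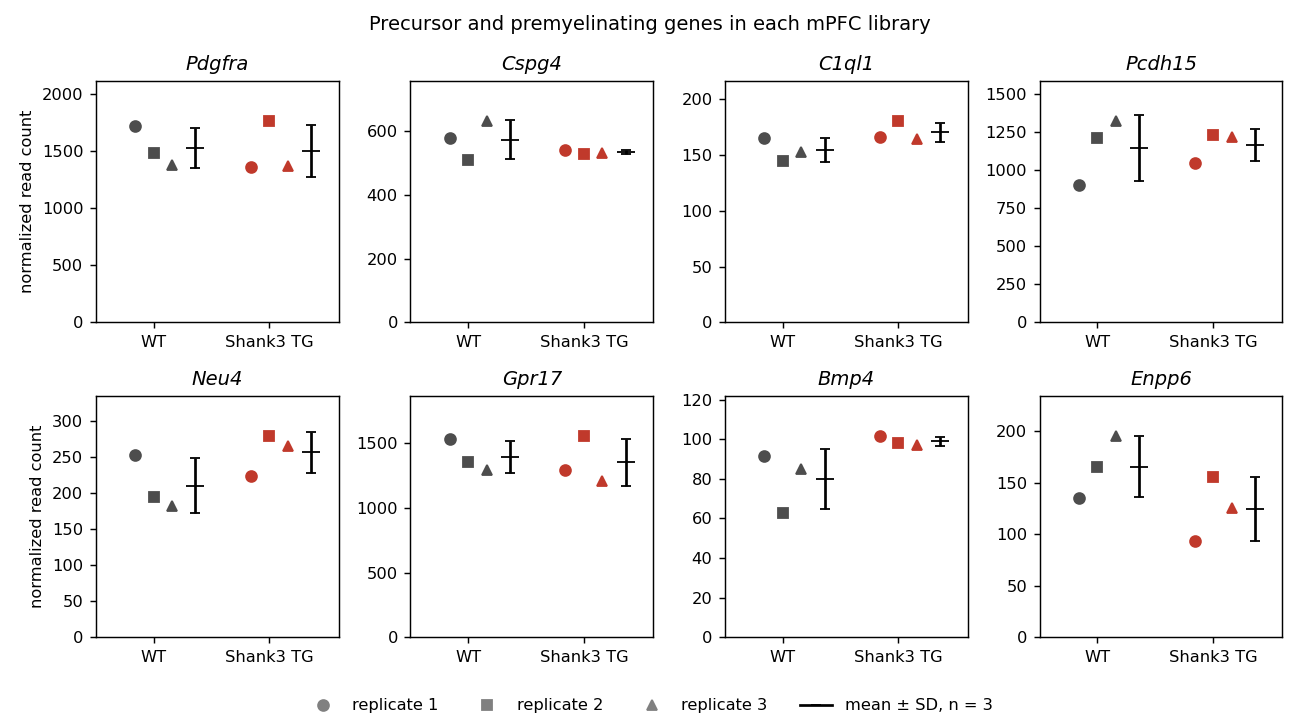
Normalized read counts (vertical axis, from 0) of each of the 8 genes in the 3 WT (grey) and 3 *Shank3* TG (red) libraries, with the mean and SD of each genotype as a black bar. The WT and *Shank3* TG points overlap in every panel except that of *Bmp4*, where the *Shank3* TG points lie between 97.1 and 101.6 and the WT points between 62.8 and 91.8.

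*Pdgfra* (ENSMUSG00000029231, chromosome 5 from 75152292 to 75198215 on GRCm38) encodes the PDGF alpha receptor and is the defining gene of the precursor. It had 1364, 1761 and 1371 normalized counts in TG-1, TG-2 and TG-3 and 1722, 1482 and 1382 in WT-1, WT-2 and WT-3. The highest and the lowest of the 6 values were both *Shank3* TG libraries, and the groups overlapped. Its log2 fold change was -0.03 (standard error 0.13, 95% interval from -0.33 to 0.26). Without TG-2 it was -0.15.

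*Cspg4* (ENSMUSG00000032911, chromosome 9 from 56865033 to 56899870) encodes the NG2 proteoglycan, which precursors share with pericytes. It had 540.9, 529.1 and 533.2 normalized counts in TG-1, TG-2 and TG-3 and 577.8, 510.3 and 631.7 in WT-1, WT-2 and WT-3. The *Shank3* TG values were close together and lay within the WT range. Its log2 fold change was -0.10 (standard error 0.10, 95% interval from -0.33 to 0.14), and it was -0.18 without WT-2 and -0.023 without WT-3. The 8 genes listed for pericytes and smooth muscle had a median log2 fold change of 0.02. Limma's p-value was under 0.05 before adjustment for 0 of 8, against 2.01% of all genes tested. Their summed level was 5777 to 7343 normalized counts in *Shank3* TG and 6187 to 7493 in WT, with none at 0 in all libraries.

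*C1ql1* (ENSMUSG00000045532, chromosome 11 from 102939264 to 102946688) encodes a secreted protein of the C1q family that binds the adhesion receptor Adgrb3. It had 166.2, 180.2 and 164.2 normalized counts in TG-1, TG-2 and TG-3 and 165.6, 144.3 and 152.9 in WT-1, WT-2 and WT-3. WT-1 lay above TG-3, so that the groups overlapped, and *Shank3* TG was the higher library at each replicate number, by as little as 0.0049 on the log2 scale at number 1 and by 0.32 at number 2. The log2 fold change was 0.14 (standard error 0.12, 95% interval from -0.14 to 0.42).

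*Pcdh15* (ENSMUSG00000052613, chromosome 10 from 73099342 to 74649737) encodes a protocadherin known from the tip links of inner ear hair cells. It had 1049, 1231 and 1222 normalized counts in TG-1, TG-2 and TG-3 and 905.2, 1214 and 1323 in WT-1, WT-2 and WT-3. The WT libraries held both the lowest and the highest value, and the log2 fold change was 0.04 (standard error 0.15, 95% interval from -0.30 to 0.38). Without WT-1 it was -0.12.

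*Neu4* (ENSMUSG00000034000, chromosome 1 from 94020451 to 94028334) encodes a sialidase, which removes sialic acids from glycoproteins and glycolipids. It had 224.1, 278.8 and 265.5 normalized counts in TG-1, TG-2 and TG-3 and 253.0, 194.8 and 182.2 in WT-1, WT-2 and WT-3. TG-2 and TG-3 were above every WT library and TG-1 was below WT-1. The log2 fold change was 0.29 (standard error 0.16, 95% interval from -0.07 to 0.66), and without the libraries numbered 3 it was 0.17.

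*Gpr17* (ENSMUSG00000052229, chromosome 18 from 31942997 to 31949636) encodes a G protein-coupled receptor of the committed precursor that restrains maturation. It had 1290, 1555 and 1208 normalized counts in TG-1, TG-2 and TG-3 and 1533, 1358 and 1295 in WT-1, WT-2 and WT-3. As with *Pdgfra*, the 2 highest libraries were TG-2 and WT-1 and the groups overlapped. The log2 fold change was -0.05 (standard error 0.12, 95% interval from -0.32 to 0.22), and -0.16 without TG-2.

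*Bmp4* and *Enpp6* had the largest fitted changes, in opposite directions. *Bmp4* (ENSMUSG00000021835, chromosome 14 from 46383520 to 46390669) encodes a BMP ligand made by committed precursors, and also by vascular cells. It had 101.6, 98.0 and 97.1 normalized counts in TG-1, TG-2 and TG-3 and 91.8, 62.8 and 84.9 in WT-1, WT-2 and WT-3. All 3 *Shank3* TG values exceeded all 3 WT values. *Bmp4* was the 1 of 8 genes without overlap, against 6.02% of all genes tested, with 1 of 8 higher (2.91%) and 0 of 8 lower (3.12%). The log2 fold change was 0.32 (standard error 0.18, 95% interval from -0.09 to 0.74), and limma's p-value was 0.11 before and 1.00 after adjustment. WT-2 was the lowest library, and without it the log2 fold change was 0.16. The exact two-sided permutation test gave p = 0.1, the smallest that 3 libraries against 3 allow.

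*Enpp6* (ENSMUSG00000038173, chromosome 8 from 46986887 to 47096762) encodes a choline-specific phosphodiesterase and marks the newly formed oligodendrocyte. It had 92.9, 155.0 and 125.5 normalized counts in TG-1, TG-2 and TG-3 and 135.5, 165.5 and 195.1 in WT-1, WT-2 and WT-3. Only TG-2 was above a WT library, and *Shank3* TG was the lower library at each replicate number. The log2 fold change was -0.42 (standard error 0.22, 95% interval from -0.93 to 0.09), and it was -0.23 without TG-1, and -0.59 without TG-2. Limma's p-value before adjustment was 0.0918. Blocked by replicate number it was 0.0199, and 0.882 after adjustment. *C1ql1*, *Bmp4* and *Enpp6*, 3 of the 8 genes, differed in one direction at all 3 replicate numbers, against 24.8% of all genes tested.

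**Figure D2:**
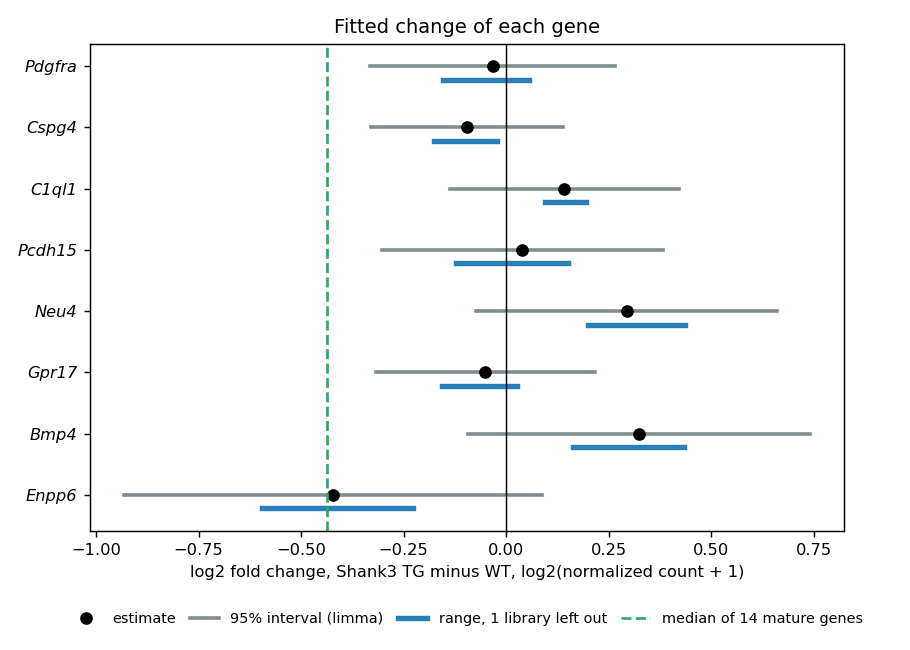
Fitted log2 fold change of each gene (*Shank3* TG minus WT, horizontal axis) with limma's 95% interval in grey and the range with 1 library left out in blue. All 8 intervals include 0, and the dashed line at -0.44, the median of 14 mature oligodendrocyte genes, lies inside the interval of *Enpp6* (-0.93 to 0.09) and outside those of the other 7. The 14 genes themselves ran from -0.59 to -0.0052, and the line is a description and not a test.

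The start regions of *Pdgfra*, *Bmp4* and *Enpp6* are printed because *Pdgfra* opens the order and *Bmp4* and *Enpp6* had the largest changes. Each window is the RefSeq sequence on GRCm38.p6 from 250 bases before to 50 bases after a transcript start, and capitals mark the E-box CANNTG, which basic helix-loop-helix factors bind and which reads the same on both strands.
Pdgfra, chr5:75152001-75152300, plus strand: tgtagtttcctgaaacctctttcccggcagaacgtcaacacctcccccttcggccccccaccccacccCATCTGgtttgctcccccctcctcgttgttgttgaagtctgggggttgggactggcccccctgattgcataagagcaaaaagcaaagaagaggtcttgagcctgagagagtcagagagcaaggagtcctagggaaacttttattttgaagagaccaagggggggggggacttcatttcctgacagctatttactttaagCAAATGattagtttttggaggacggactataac
Bmp4, chr14:46390620-46390919, minus strand: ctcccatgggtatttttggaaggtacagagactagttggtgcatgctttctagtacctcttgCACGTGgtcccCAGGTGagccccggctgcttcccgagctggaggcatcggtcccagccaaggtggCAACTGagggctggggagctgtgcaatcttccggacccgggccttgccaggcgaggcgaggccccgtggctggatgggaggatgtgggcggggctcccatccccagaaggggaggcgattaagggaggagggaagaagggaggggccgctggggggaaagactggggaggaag
Enpp6, chr8:46986637-46986936, plus strand: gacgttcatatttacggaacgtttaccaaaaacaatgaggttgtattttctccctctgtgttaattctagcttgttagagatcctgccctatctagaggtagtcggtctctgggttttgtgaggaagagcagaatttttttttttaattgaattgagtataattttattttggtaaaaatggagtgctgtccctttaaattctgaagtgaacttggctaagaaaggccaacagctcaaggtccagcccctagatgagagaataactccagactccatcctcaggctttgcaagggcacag
The *Pdgfra* window holds 2 E-boxes, the *Bmp4* window 3 and the *Enpp6* window 0, and 72.3% of the 32851 RefSeq windows hold at least 1. Their GC content was 51.0%, 64.0% and 40.3%, against a median of 52.7% over all windows. RNA levels do not measure binding at these letters.

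Levels can be compared between the genes per kilobase of exon. In WT, *Gpr17* was highest with 269 ± 23.8 normalized counts per kb (SD, n = 3), followed by *Pdgfra* with 153 ± 17.5 and *C1ql1* with 105 ± 7.26. The ranges of these 3 genes and of the next were apart. *Pcdh15* (48.3 ± 9.11), *Cspg4* (48.0 ± 5.1) and *Neu4* (45.3 ± 8.15) followed with overlapping ranges, and *Bmp4* (35.5 ± 6.74) and *Enpp6* (25.8 ± 4.65) were lowest, also with ranges that overlapped their neighbours. *Pcdh15* depends on the length used. Over the longest coding transcript in place of all exons it had 126 normalized counts per kb and lay above *C1ql1*, and the other genes kept their order. In *Shank3* TG, *Gpr17* (260 ± 34.9), *Pdgfra* (149 ± 22.7) and *C1ql1* (116 ± 5.94) were again highest and *Enpp6* (19.4 ± 4.85) lowest. *Neu4*, with 55.2 ± 6.15 normalized counts per kb, lay there above *Pcdh15* (49.1 ± 4.33) and *Cspg4* (44.8 ± 0.504), and *Bmp4* had 44.0 ± 1.05. This place of *Neu4* holds over all exons only. Over the longest coding transcripts of *Neu4*, *Pcdh15* and *Cspg4* (4511, 9104 and 8121 bases) *Neu4* lies below the other genes named.

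Across the 6 libraries, the gene most like *Pdgfra* was *Stard13*, with a Pearson correlation of 0.997 on the log2 scale (Spearman 0.943). *Tmem151b* (0.975), *Bcl10* (0.972) and *Adcy6* (0.971) followed, and *Gpr17* was the fifth of 13454 genes compared (0.970). No other member of the list correlated with *Pdgfra* above 0.54, and the correlation with *Enpp6* was 0.21. For *Enpp6*, the closest genes were *Zkscan2* (0.990), *E130308A19Rik* (0.987), *Pcyt1a* (0.986), which makes the activated choline of phosphatidylcholine synthesis, *Hnrnpul1* (0.985) and *Mdn1* (0.982). With 6 points that share their libraries, 82 genes reached 0.9 with *Pdgfra* and 106 with *Enpp6*, so these values describe the libraries only.

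The next stage gave other values. Of the 14 genes listed for myelin and the mature oligodendrocyte, all 14 had a fitted log2 fold change below 0, with -0.44 as the median. For *Gjb1*, a gap junction gene, it was -0.0052, and its mean was 188 normalized counts in *Shank3* TG and 173 in WT. Limma's p-value was under 0.05 before adjustment for 12 of the 14, against 1.08% of all genes tested in that direction. None of the 14 passed after adjustment, and 3 did when the z-scores were scaled to an empirical null, *Mog* (adjusted p-value 0.0353), *Ermn* and *Aspa* (0.0479 each). The list holds genes that the study reported on these samples, so its direction is not independent evidence. Within a library, the mean log2 level of the 14 mature genes exceeded that of the 4 precursor genes by 1.51, 1.65 and 1.67 in TG-1, TG-2 and TG-3 and by 2.01, 1.99 and 2.10 in WT-1, WT-2 and WT-3. The *Shank3* TG values all lay under the WT values, and the mean difference was -0.42. For single genes, the log2 ratio of *Mbp*, the gene of that list with the highest normalized count, to *Pdgfra* was 4.57 ± 0.11 in *Shank3* TG and 5.0 ± 0.098 in WT (SD, n = 3, exact two-sided permutation test, p = 0.1), lower at each replicate number. The log2 ratio of *Mbp* to *Enpp6* was 8.17 ± 0.31 in *Shank3* TG and 8.21 ± 0.44 in WT (exact two-sided permutation test, p = 1.0), with a difference of -0.04.

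The ratio of *Enpp6* to *Pdgfra* set the newly formed end of the order against its precursor end. On the log2 scale it was -3.86, -3.50 and -3.44 in TG-1, TG-2 and TG-3 and -3.66, -3.16 and -2.82 in WT-1, WT-2 and WT-3. The groups overlapped, and *Shank3* TG was lower at each replicate number, by 0.20 to 0.62 in size. The mean difference of -0.39 gave p = 0.3 in the exact two-sided permutation test, and it was -0.19 without WT-3, -0.26 without TG-1 and -0.61 without WT-1. The ratio of *Gpr17* to *Pdgfra* was -0.15 ± 0.06 in *Shank3* TG and -0.13 ± 0.04 in WT (SD, n = 3), so the means differed by less than the spread between the libraries.

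**Figure D3:**
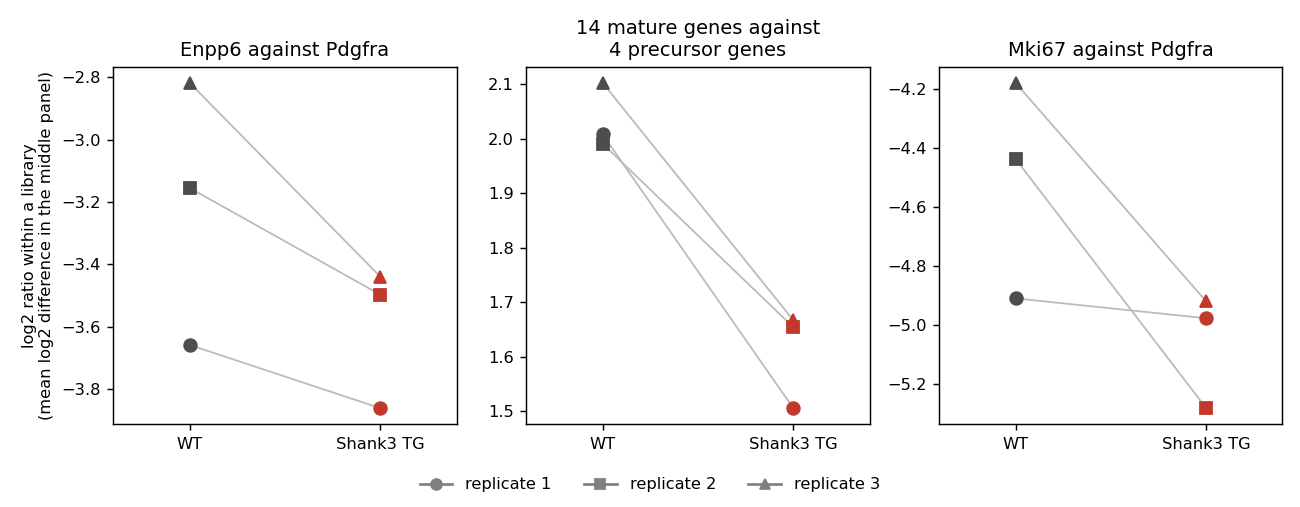
Log2 ratios within each library (vertical axes, which do not start at 0) for *Enpp6* to *Pdgfra*, the mature to the precursor genes and *Mki67* to *Pdgfra*, with lines joining libraries of the same replicate number. The ratio of *Enpp6* to *Pdgfra* overlaps between WT and *Shank3* TG, whereas the mature genes against the 4 precursor genes lie between 1.51 and 1.67 in *Shank3* TG and between 1.99 and 2.10 in WT, and *Mki67* to *Pdgfra* from -5.28 to -4.92 and from -4.91 to -4.18.

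Other genes of the same stages were read from lists. Among 14 further precursor genes 8 were higher and 6 lower in *Shank3* TG, their median change was 0.03 on the log2 scale, and limma's p-value was under 0.05 before adjustment for 1 gene, against 1.08% of all genes tested in that direction. This gene was *Vcan*, which encodes the proteoglycan versican of the extracellular matrix. *Vcan* had 580.5, 595.6 and 522.5 normalized counts in TG-1, TG-2 and TG-3 and 695.7, 683.1 and 743.5 in WT-1, WT-2 and WT-3. The groups did not overlap, and the change was -0.32 on the log2 scale (standard error 0.09), with a limma p-value of 0.00784 before and 1.00 after adjustment. The genes of the list with the highest normalized counts, *Tnr*, *Ptprz1* and *Olig1*, had log2 fold changes of 0.04, -0.03 and -0.14.

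Of 14 further genes of committed and newly formed oligodendrocytes 13 were tested, 5 higher and 8 lower, and their median change was -0.01 on the log2 scale. The 1 gene with a limma p-value under 0.05 before adjustment was *Bcas1*, a marker of early myelinating cells, with 2510 ± 227 normalized counts in *Shank3* TG and 3416 ± 242 in WT (SD, n = 3) and no overlap. Limma's adjusted p-value for *Bcas1* was 1.00, and 0.0353 under the empirical null, and the 1 gene of 13 stood against 1.08% of all genes tested in that direction. The study had reported a decrease of *Bcas1* in these samples, so its p-values and its place in the count are not independent evidence. With the block for replicate numbers 2 of the 13 were under 0.05 before adjustment, *Bcas1* and *Tmem163*, against 4.98% of all genes tested. *Tmem163* had a log2 fold change of -0.39 and overlapping groups. Limma's p-value for it in the blocked fit was 0.00241 before and 0.491 after adjustment. *Fyn*, a kinase of oligodendrocyte maturation, and *Tns3*, a focal adhesion protein, had log2 fold changes of 0.02 and -0.07.

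**Figure D4:**
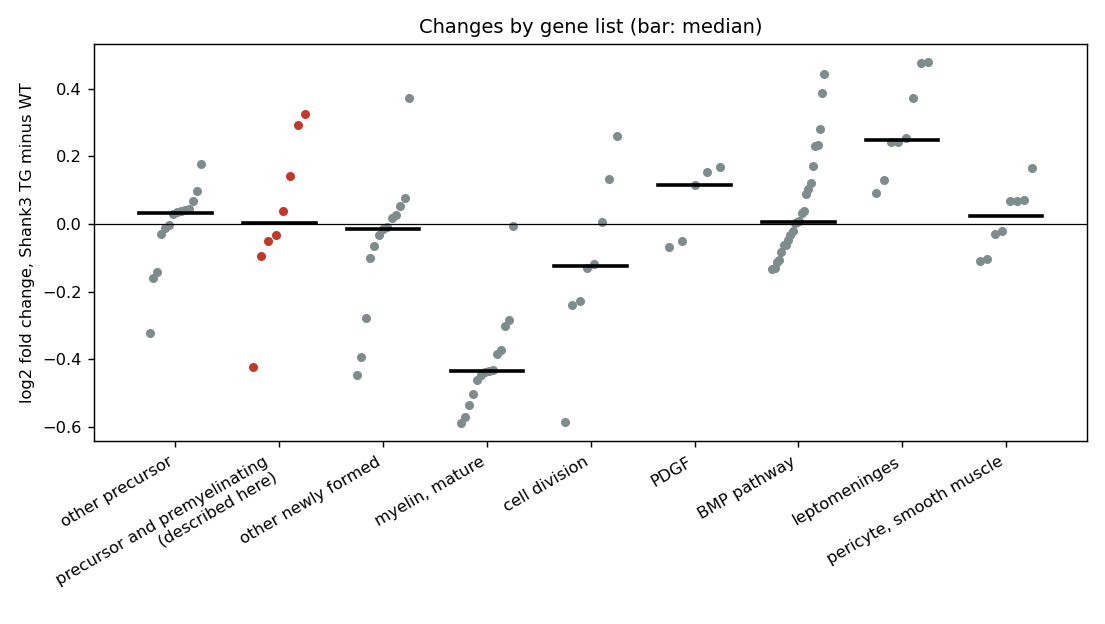
Log2 fold change (*Shank3* TG minus WT, vertical axis) of each tested gene, 1 point a gene, by list, with the median as a black bar and the 8 genes described here in red. The medians are 0.00 for the 8 genes, 0.03 for other precursor genes and -0.01 for other newly formed cell genes, against -0.44 for the 14 mature genes and 0.25 for the 8 leptomeningeal genes.

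Of 8 genes of cell division, which dividing precursors contribute to in the adult cortex, 3 were higher and 5 lower, and the median change was -0.12 on the log2 scale. *Mki67*, which encodes the proliferation antigen Ki-67, had 42.3, 44.3 and 44.3 normalized counts in TG-1, TG-2 and TG-3 and 56.3, 67.5 and 75.4 in WT-1, WT-2 and WT-3. The groups did not overlap, and the change was -0.59 on the log2 scale (standard error 0.18), with a limma p-value of 0.0136 before and 1.00 after adjustment. It was the 1 gene of the 8 under 0.05 before adjustment, against 1.08% of all genes tested in that direction. *Top2a*, the topoisomerase of dividing cells, had 97.2 ± 15.2 normalized counts in *Shank3* TG and 109 ± 33.1 in WT (SD, n = 3), and its groups overlapped. The log2 ratio of *Mki67* to *Pdgfra* was -4.98, -5.28 and -4.92 in TG-1, TG-2 and TG-3 and -4.91, -4.44 and -4.18 in WT-1, WT-2 and WT-3. These groups did not overlap but met at TG-3 and WT-1 (exact two-sided permutation test, p = 0.1). *Mki67* was named for its own p-value and lack of overlap, so its ratio to *Pdgfra* is not separate evidence.

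Around the PDGF receptor, 0 of the 5 other PDGF genes listed had a limma p-value under 0.05 before adjustment, against 2.01% of all genes tested. Their median change was 0.11 on the log2 scale. *Pdgfa*, a ligand of this receptor, followed the replicate number, with 1799 and 2001 normalized counts in TG-3 and WT-3 and 1002 to 1192 in the other 4 libraries. *Pdgfb*, a ligand of endothelial cells, had 953 ± 87.2 normalized counts in *Shank3* TG and 878 ± 23.7 in WT (SD, n = 3).

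Of the 24 other genes of the BMP pathway, 14 were higher and 10 lower, and the median change was 0.0069 on the log2 scale. Limma's p-value was under 0.05 before adjustment for 3 of the 24, all higher, against 0.933% of all genes tested in that direction. These 3, *Bmp3*, *Bmp6* and *Bmp7*, encode ligands of the BMP family, and none passed after adjustment. Whether they act alike on BMP signalling was not tested. *Bmp3* had 472.1, 494.1 and 513.0 normalized counts in TG-1, TG-2 and TG-3 and 420.5, 424.6 and 414.2 in WT-1, WT-2 and WT-3. *Bmp6* had 158.5, 179.2 and 160.8 in *Shank3* TG and 150.7, 122.1 and 98.2 in WT. *Bmp7* had 390.3, 393.3 and 481.0 in *Shank3* TG and 291.6, 309.9 and 365.1 in WT. In each of the 3 genes the *Shank3* TG values all exceeded the WT values, 3 of the 24 against 2.91% of all genes tested. The log2 fold changes of *Bmp3*, *Bmp6* and *Bmp7* were 0.23, 0.44 and 0.39 (standard errors 0.09, 0.18 and 0.13). The change of *Bmp6* was 0.29 without WT-3. *Bmp2*, the other ligand of the list, had 115 ± 29.6 normalized counts in *Shank3* TG and 124 ± 9.91 in WT (SD, n = 3), with overlap. Among the transcriptional targets of the pathway, *Id1*, *Id2*, *Id3* and *Id4* had log2 fold changes of 0.12, -0.11, 0.10 and -0.05, and all 4 overlapped. The receptor *Bmpr2* had a log2 fold change of -0.02.

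Leptomeningeal fibroblasts also express *Pdgfra* and several BMP ligands. All 8 listed markers were higher in *Shank3* TG, by a median of 0.25 on the log2 scale, and their summed level was 4090 to 4869 normalized counts in *Shank3* TG and 3608 to 4054 in WT. Limma's p-value was under 0.05 before adjustment for 3 of 8, *Ogn* (log2 fold change 0.48), *Igf2* (0.24) and *Slc6a13* (0.48), against 0.933% of all genes tested in that direction, and none of the 8 passed after adjustment. The groups did not overlap for 2 of the 8, *Ogn* and *Igf2*, against 2.91% of all genes tested in that direction. The change of *Ogn* was 0.31 without WT-1. That of *Slc6a13* was 0.32 without TG-2. None of the 8 was at 0 in all libraries. Their part in the values of *Pdgfra* and of the BMP ligands was not tested. The 5 choroid plexus markers were low, and only 1 of 5, *Ttr*, had a limma p-value under 0.05 before adjustment, against 0.933% of all genes tested in that direction. The study had reported an increase of *Ttr* in these samples, so its p-value is not independent evidence. The median change of the 5 markers, 0.48 on the log2 scale, was that of *Kcne2*, with 6.99 normalized counts in *Shank3* TG and 5.11 in WT. The change of *Kcne2* alone ran from -0.25 to 0.99 with 1 library left out. They had a summed level of 98.6 to 551 normalized counts in *Shank3* TG and 83.5 to 153 in WT. *Ttr* itself had 126.7, 22.9 and 445.2 normalized counts in TG-1, TG-2 and TG-3 and 14.3, 12.6 and 41.7 in WT-1, WT-2 and WT-3, its groups overlapped, and its log2 fold change of 2.42 was 1.42 without TG-3.

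**Figure D5:**
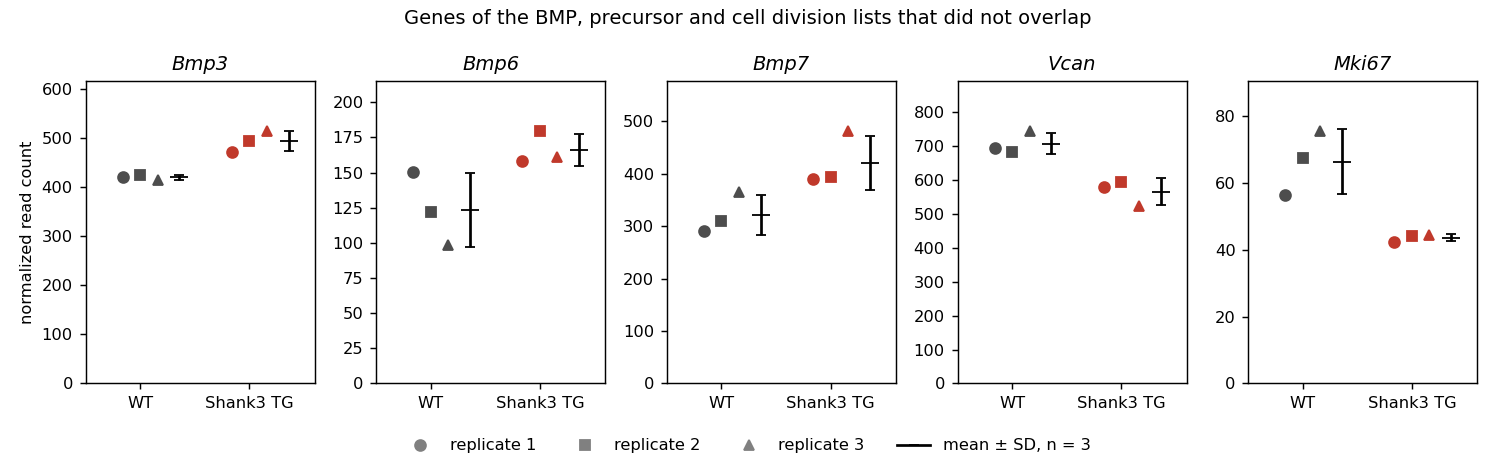
Normalized read counts (vertical axis, from 0) of *Bmp3*, *Bmp6*, *Bmp7*, *Vcan* and *Mki67* in the 3 WT (grey) and 3 *Shank3* TG (red) libraries, with mean and SD as a black bar. The *Shank3* TG points lie above the WT points for the 3 ligands and below them for *Vcan* (522 to 596 against 683 to 743) and *Mki67* (42.3 to 44.3 against 56.3 to 75.4).

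Relatives and partners of the other genes gave no call. Of 16 listed 8 were higher and 8 lower, and the median change was -0.0098 on the log2 scale. Limma's p-value was under 0.05 before adjustment for 0 of the 16, against 2.01% of all genes tested. The groups did not overlap for 1 of the 16, against 6.02% of all genes tested. This was *Lhfpl4*, a relative of *Lhfpl3*, whose limma p-value was 0.43 before adjustment. *Enpp2*, a phosphodiesterase of the same family as *Enpp6* that mature oligodendrocytes and choroid plexus make, had a log2 fold change of 0.00.

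The remaining cell types were read from their markers. The median log2 fold change was 0.00 for 6 astrocyte genes, -0.01 for 6 microglia genes, 0.04 for 6 endothelial genes, 0.05 for 6 excitatory neuron genes, -0.02 for 6 inhibitory neuron genes and 0.06 for 6 genes of the olfactory bulb and neuroblasts. In these 6 lists 0 genes had a limma p-value under 0.05 before adjustment, against 2.01% of all genes tested. The groups did not overlap for 1 gene, *Slc17a7*, which was higher in *Shank3* TG, against 2.91% of all genes tested in that direction.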

How the data were processed

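The authors made stranded mRNA libraries from mPFC RNA, estimated transcripts with Salmon 0.9.1 on GRCm38 with GC bias correction, imported genes with tximport and normalized in DESeq2 1.19.11 (R 3.6.0). The deposited signal is normalized read counts for 18254 genes and 6 libraries. Low values lay within 0.02 of whole multiples of a step for at most 23.1% in any library, so reads were not recovered, counting error is unknown, and limma 3.58.1 in R 4.3.3 stood in for a count test. GENCODE release M21 named 18231 genes. The 16714 genes whose mean reached 5 normalized counts were fitted on log2(normalized count + 1) with the genotype alone (eBayes with a mean-variance trend, two-sided, Benjamini-Hochberg, threshold 0.05). Fold changes are on this scale. The fit was tested on simulated data.

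Replicate numbers come from the labels. Deviations from the genotype mean correlated at 0.30, 0.33 and 0.62 for pairs of equal number and at most 0.27 otherwise. Only the libraries numbered 3, at 0.62, stood clear of the unequal pairs. Pairing at the other numbers is therefore not shown. The block treats equal numbers as pairs, and the main fit and the permutation tests do not. Members and lists were chosen with earlier results of these data known. From each list, genes are named if they had an unadjusted p-value under 0.05 without overlap, or were among the 3 with the highest counts, not corrected for length, and for *Pdgfra* and *Enpp6* the 5 genes of highest correlation and a mean reaching 50. *Bmp2*, *Id1*, *Id3*, *Id4*, *Slc6a13*, *Eomes*, *Sp8*, *Dlx2*, *Gjb1*, *Tmem163* and *Kcne2* lie outside that rule and were chosen after their values were seen. Alternatives were pseudocounts of 0.1 and 5, other filters, scalings and eBayes options, the block, a term for the libraries numbered 3, an empirical null and leaving libraries out.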

Additional observations from a re-analysis of the deposited data

How the results depend on the processing

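The number of the 8 genes with an adjusted p-value under 0.05 was 0 under all 18 alternatives. Over all genes tested it was 0, and 1 (*Shank3*) with upper quartile scaling, with the robust option, with the replicate number as a block, with a term for the libraries numbered 3 and without these libraries, between 0 and 1 with 1 library left out, and 26 with the empirical null, and the cause was not tested. The block changed the side of the threshold of none of the 8 genes, the lowest adjusted p-value of any of them under any alternative being 0.539 for *Enpp6* with the empirical null. Before adjustment, limma's p-value was under 0.05 in 3 alternatives for *Enpp6*, 2 for *Neu4* and 1 for *Bmp4*, and in none for the other members. The empirical null was among these for each of the 3 genes, and there 1215 of the 16714 genes tested were under 0.05. *Cspg4*, *C1ql1*, *Neu4*, *Bmp4* and *Enpp6* kept their direction under all 18 alternatives. With 1 library left out the log2 fold change ran from -0.15 to 0.056 for *Pdgfra*, from -0.12 to 0.15 for *Pcdh15* and from -0.16 to 0.026 for *Gpr17*, each with a change of sign. The medians over the 8 genes and over the 4 precursor genes both ran from -0.045 to 0.072, with a change of sign, and that over the premyelinating genes ran from 0.037 to 0.23 with 1 library left out. The length of the longest coding transcript was added after seeing the data. A difference such as that of *Pdgfra* is known only to within its 95% interval, from -0.33 to 0.26 on the log2 scale.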
